A study of Mus musculus with 55 samples.

Results

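The comparison described here sets the livers of 8 OTC mice that received a hairpin against Glud1 (sh-Glud1) against the livers of 8 OTC mice that received a scrambled hairpin (control). The members were the 16 libraries of a 55-library series whose table columns carry the strain OTC and one of these vectors, and the comparison was read across all 13311 genes that passed a filter on low counts. The OTC strain was B6EiC3Sn a/A-Otcspf-ash/J, and its males carry an X-linked Otc allele known to lower ornithine transcarbamylase, which joins ornithine and carbamoyl phosphate in the urea cycle. The WT mice, used below for the same hairpin contrast, were male B6EiC3SnF1/J hybrids, with 9 sh-Glud1 and 10 control libraries. The third vector carried a hairpin against Gls2, with 10 libraries in OTC. Mice were 4 months old when the adeno-associated virus was given by vein at week 0, ate a diet of 40% protein from week 2, and gave liver for sequencing at week 5. Virus and diet were therefore shared by the sh-Glud1 and the control groups, and there was no group without virus or on chow. The design placed 12 to 13 mice in each group, and 8 libraries per OTC group were analysed here. No source used here gave the hairpin's sequence, its promoter or the serotype of the virus, so the cells in which the hairpin was made cannot be stated.

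Glud1 encodes glutamate dehydrogenase, the mitochondrial enzyme that splits glutamate into 2-oxoglutarate and free ammonia and can also run in reverse. Upstream of it, glutaminase (Gls2 in hepatocytes) releases ammonia from glutamine and leaves glutamate. Downstream, carbamoyl phosphate synthetase binds the ammonia for the urea cycle in hepatocytes near the portal vein, and glutamine synthetase takes up what remains near the central vein. In mice with low ornithine transcarbamylase the cycle is slowed, which makes the enzymes that release ammonia of interest on a protein-rich diet.

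The sh-Glud1 libraries held 15720335 to 22672786 counts and the control libraries 15629514 to 20717610. No pair of libraries within a group looked like a repeat of the other. The liver label fitted the level of albumin (Alb), with a median of 73062 CPM in sh-Glud1 and 78639 CPM in control. CPM is the count scaled to a common library size after TMM normalisation. All 25 hepatocyte genes passed the filter on low counts. So did all 29 macrophage and all 26 endothelial genes, so passing it does not mark a cell type. In 4 of the 16 libraries, sh-Glud1 mice 58 and 65 and control mice 3 and 67, the first principal component (30.5% of the variance) was between 36.7 and 68.99, against 4.42 at most in the other 12. The same 4 libraries had the highest mean of 23 glucocorticoid and fasting genes, with 0.77 to 1.37 log2 units above the control mean in the 2 sh-Glud1 libraries and 1.24 to 2.00 in the 2 control libraries. List results that moved with these libraries are given with and without them for the lists described at length.

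Glud1 was lowered in every sh-Glud1 liver. Normalised counts of Glud1 were 282, 308, 431, 439.6, 472, 499.8, 530.3 and 588 CPM in the 8 sh-Glud1 livers, against 892, 948, 1009, 1033, 1083, 1136, 1208 and 1234 CPM in the 8 control livers. Every sh-Glud1 liver was below every control liver, and the highest of them was 588 CPM against the lowest control of 892 CPM. The mean was 444 ± 105 CPM in sh-Glud1 and 1068 ± 121 CPM in control (SD, n = 8 each). On the length-corrected scale deposited by the authors, Glud1 was at 277 ± 74.4 TPM in sh-Glud1 and 634 ± 60.7 TPM in control (SD, n = 8 each). The mean was 41.6% of control, and single sh-Glud1 mice had 26.5% to 55.1% of it. The log2 fold change was −1.27 ± 0.13 (SE), with a 95% interval of −1.53 to −1.004 (edgeR quasi-likelihood F test, Benjamini-Hochberg adjusted p = 3.7e-09). An exact two-sided permutation test over the 12870 ways to split 16 mice gave p = 0.000155 for Glud1, the smallest that design allows. Glud1 (ENSMUSG00000021794.16) lies on GRCm38 at chr14:34310727-34345265 on the plus strand. Since whole liver was sequenced, fewer cells with a transcript and less transcript per cell cannot be told apart.

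**Figure D1:**
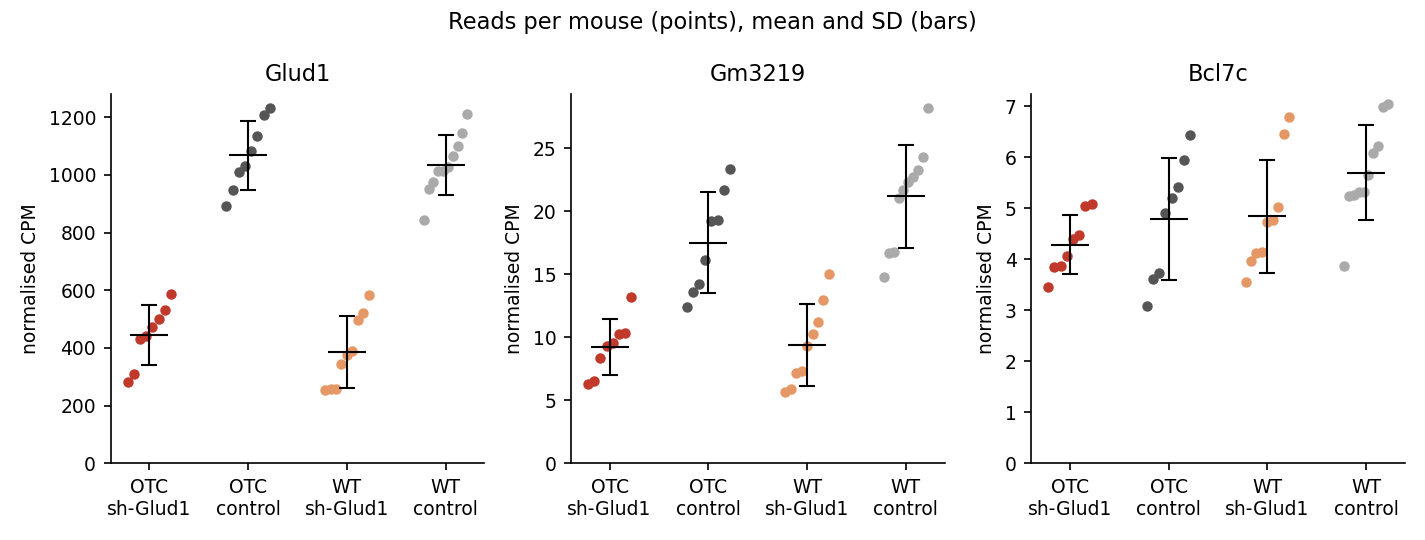
Normalised counts (CPM, linear axes from 0) of Glud1, Gm3219 and Bcl7c in each mouse, for OTC sh-Glud1, OTC control, WT sh-Glud1 and WT control; points are mice and bars are the mean and SD. Glud1 separated fully (588 CPM at most in OTC sh-Glud1, 892 CPM at least in OTC control), Gm3219 nearly so, and Bcl7c overlapped.

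The only other gene called in OTC livers was Gm3219, an annotated processed pseudogene that starts 15 bases past the annotated end of Glud1 on the same strand. Gm3219 (ENSMUSG00000115431.1) spans 303 bases at chr14:34345281-34345583 on GRCm38. Its ends are printed here because they show where, directly after the targeted gene, the second called signal lies; they are GRCm38 plus-strand letters from the GENCODE M21 transcript.
Gm3219 first 30 bases, chr14:34345281-34345310: gggacgccccagcccagccgccctggatca
Gm3219 last 30 bases, chr14:34345554-34345583: aagcgcatctgtccaaatgcccctgacccc
All 303 of its bases matched a transcript of Bcl7c, a gene on chromosome 7, without a mismatch, and no stretch matched any of the 5 Glud1 transcripts, with which it shared at most 9 letters in a row. Reads of Gm3219 and Bcl7c could therefore be exchanged in counting, and the value of each is uncertain. Gm3219 was at 9.22 ± 2.22 CPM in sh-Glud1 and 17.5 ± 4.00 CPM in control (SD, n = 8 each). Single livers ran from 6.29 to 13.2 CPM (median 9.41) in sh-Glud1 and from 12.4 to 23.3 CPM (median 17.7) in control, so 1 sh-Glud1 mouse, mouse 44, reached into the control range. The log2 fold change of Gm3219 was −0.92 ± 0.17 (SE), 95% interval −1.26 to −0.59 (edgeR adjusted p = 0.00735; exact permutation p = 0.000311), which left 52.7% of control. Gm3219 had 2.11 reads for every 100 Glud1 reads in sh-Glud1 and 1.65 in control. Bcl7c, a subunit of the BAF chromatin remodelling complex, had a log2 fold change of −0.16 ± 0.14 (interval −0.44 to 0.12, edgeR adjusted p = 0.988) and a mean of 89.3% of control. The call of Gm3219 was lost when only the libraries of the OTC sh-Glud1 and OTC control groups entered the fit (log2 fold change −0.93 ± 0.16, edgeR adjusted p = 0.161; 0.000275 to 0.161 over 10 alternatives).

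No other gene passed. Of 13311 genes, 2 were called at an adjusted p below 0.05, 0.0150% of all, both lower and none higher. At an unadjusted p below 0.05 there were 639 genes (4.80%), 335 higher (2.52%) and 304 lower (2.28%). These edgeR tests share 1 estimate of the spread per gene over all 55 libraries. In the fit of the 2 OTC groups alone 284 of 12565 genes had an unadjusted p below 0.05. The groups did not overlap in 2 genes (0.0150%), Glud1 and the predicted gene Gm19522, which was at 0.555 to 1.40 CPM in sh-Glud1 and 1.44 to 5.40 CPM in control and was not called (−0.95 ± 0.24, edgeR adjusted p = 0.492). The median log2 fold change over all genes was −0.002 rounded to 3 decimals, and 49.1% of genes were above 0. A further 61 genes had an estimated difference of at least 2-fold that did not pass.

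**Figure D2:**
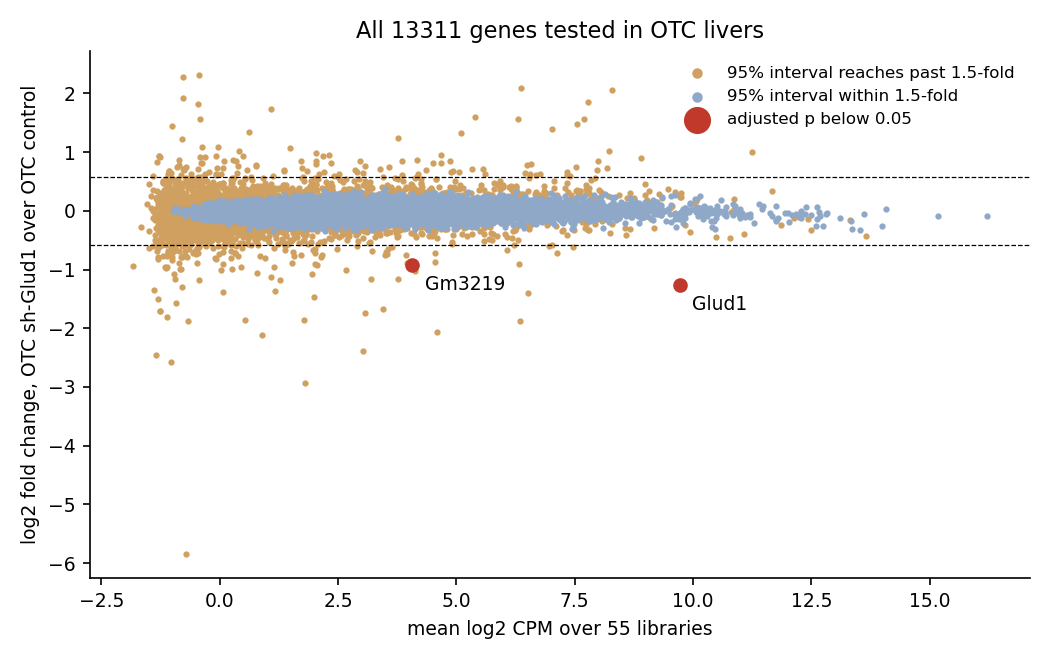
Log2 fold change of OTC sh-Glud1 over OTC control (vertical axis) against the mean log2 CPM over the 55 libraries (horizontal axis) for the 13311 genes tested; blue genes have a 95% interval wholly within 1.5-fold (dashed lines), tan genes do not, and red marks the called genes. Glud1 and Gm3219 are the only red points, at −1.27 and −0.92.

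The largest differences among the 50 smallest p, apart from the called genes, came from genes that missed the test. Saa1, an acute phase protein, had 3.36 to 105 CPM (median 18.9) in sh-Glud1 and 2.00 to 12.7 CPM (median 6.67) in control, a log2 fold change of 2.09 ± 0.59 (edgeR adjusted p = 0.759). Its highest value belonged to sh-Glud1 mouse 58, and the ranges overlapped. Orm2, another acute phase protein, had 1.85 to 12.4 CPM (median 5.49) in sh-Glud1 and 0.928 to 4.96 CPM (median 2.09) in control (1.32 ± 0.43). The acute phase list as a whole was split: of 31 genes tested, 16 estimates were above 0 and 15 below, with a median of 0.02. In that list 3 genes were higher and 0 lower at an unadjusted p below 0.05 (2.52% and 2.28% of all genes), and none was called. Kif24, a kinesin that acts at centrioles, had 0.802 to 1.85 CPM in sh-Glud1 and 0.297 to 1.08 CPM in control (0.85 ± 0.24). On the lower side, Fam107a had 0 to 14.9 CPM (median 0.425) in sh-Glud1 and 0.179 to 146 CPM (median 0.286) in control, a fitted −2.93 ± 0.86 that stood at 0.73 without control mouse 3 and at −4.75 without sh-Glud1 mouse 58. The fit without sh-Glud1 mouse 58 called Fam107a (edgeR adjusted p = 0.0395), and without control mice 3 and 67 its estimate was 3.29 (edgeR adjusted p = 0.152; 0.152 to 0.996 over 7 alternatives). Control mouse 3 alone had 146 CPM of Fam107a, and the medians of the groups were close to each other. Syn2 (synapsin 2) had −2.45 ± 0.80, Mturn −0.67 ± 0.19, Alms1 (a centrosomal protein) −0.55 ± 0.16 and Porcn (an acyltransferase for Wnt ligands) −0.51 ± 0.16, and none of the 4 passed.

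A missing call does not bound a change, so each gene was also asked whether its whole 95% interval lay within 1.5-fold of no difference in either direction (0.58 on the log2 scale). This held for 10408 of 13311 genes, 78.2%. At the narrower margin of 25% above no difference and its inverse (0.32 on the log2 scale) it held for 6790 genes (51.0%), and at 2-fold for 12373 genes (93.0%). The remaining 2903 genes at 1.5-fold were the 2 called genes and 2901 whose interval was too wide or lay too far to one side. The median half-width of an interval was 0.23 on the log2 scale, or 1.17-fold. The share moved with the level of the gene: of 1284 genes with a mean below 0 log2 CPM 10.3% were bounded, of 2297 genes at 0 to 2 log2 CPM 60.3%, and of 3675 genes at 2 to 4 log2 CPM 89.3%. Of 4031 genes at 4 to 6 log2 CPM 93.9% were bounded, and above that 90% of 2024. The intervals are for single genes and were not widened for the number of genes.

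Pathways differed widely in the share of members that were bounded. Of 52 lists of liver pathway and cell type genes, 6 had every tested member within 1.5-fold: nuclear-encoded oxidative phosphorylation (75 of 75), the proteasome (39 of 39), branched-chain amino acid oxidation (18 of 18), RNA interference (16 of 16), the urea cycle (10 of 10) and Y-linked genes (4 of 4). At 2-fold, 17 lists had every tested member inside. The background for these counts is the 78.2% of all genes and, as given above, that share differs with expression level.

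**Figure D3:**
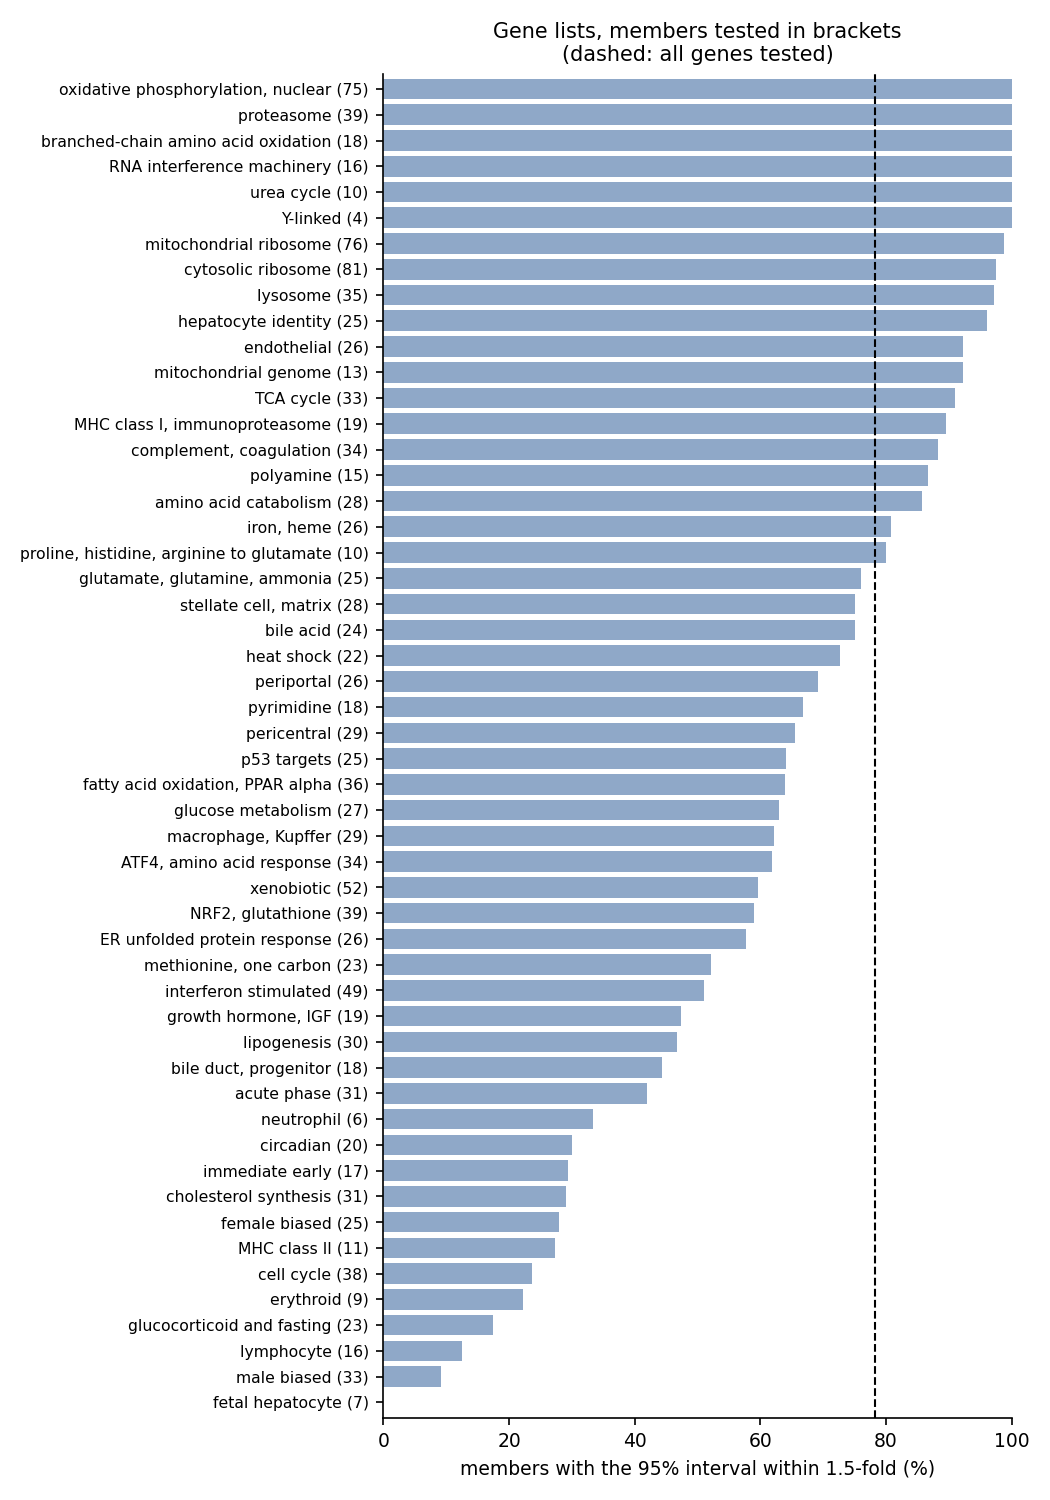
Percentage of tested members whose 95% interval of the OTC sh-Glud1 over OTC control difference lay wholly within 1.5-fold (horizontal axis), for 52 gene lists with the number of tested members in brackets; the dashed line is the 78.2% of all genes tested. The top 6 lists reach 100%, whereas male-biased genes stand at 9.09% and fetal hepatocyte genes at 0%.

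Genes of glutamate, glutamine and ammonia handling were the neighbours of the target. Of 29 listed, 25 were tested, 19 were bounded (76%, near the 78.2% of all genes) and Glud1 was the only call. Gls2, the hepatocyte glutaminase that supplies glutamate, had 324 to 527 CPM (median 435) in sh-Glud1 and 332 to 554 CPM (median 449) in control. The ranges of Gls2 nearly coincided, its log2 fold change was −0.02 ± 0.11, and its interval of −0.24 to 0.20 bounds it. Glutamine synthetase (Glul) was bounded less tightly, at 0.04 ± 0.25 with an interval of −0.45 to 0.54. The transaminases that move amino groups to and from glutamate were bounded for mitochondrial aspartate (Got2, 0.06, the narrowest interval of the list at −0.04 to 0.16) and for alanine (Gpt −0.04 ± 0.12, Gpt2 −0.13 ± 0.17). Cytosolic aspartate aminotransferase (Got1) was not bounded, at −0.42 ± 0.35 with an interval of −1.11 to 0.27. The mitochondrial glutamate carrier Slc25a22 (0.04 ± 0.15), the aspartate-glutamate carriers Slc25a12 (−0.08 ± 0.14) and Slc25a13 (0.05 ± 0.09) and the glutamine transporters Slc38a3 (−0.04 ± 0.12) and Slc38a4 (−0.10 ± 0.11) were bounded. The other unbounded members were the uptake carriers Slc1a2, Slc1a4 and Slc1a5 and asparagine synthetase (Asns), which had the widest interval, −0.42 to 1.58.

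The urea cycle was bounded in full. Otc itself had 51.6 to 74.5 CPM (median 55.1) in sh-Glud1 and 43.02 to 79.1 CPM (median 61.5) in control, so the sh-Glud1 livers lay inside the control range, with a log2 fold change of −0.10 ± 0.09 and an interval of −0.28 to 0.08. Carbamoyl phosphate synthetase (Cps1), which fixes ammonia at the entry of the cycle, was at 0.07 ± 0.13 (interval −0.20 to 0.33), and Nags, whose product activates it, had the narrowest interval, −0.23 to 0.11. Argininosuccinate synthetase (Ass1) was at −0.06 ± 0.13 and arginase (Arg1) at 0.02 ± 0.16. Argininosuccinate lyase (Asl) had the widest interval, −0.52 to 0.43, and Sirt5, the deacylase that acts on Cps1, the largest estimate, 0.18 ± 0.13 with an interval of −0.08 to 0.44. The mitochondrial ornithine carrier Slc25a15 and the carbonic anhydrase Car5a, which supplies bicarbonate, were inside at 0.09 ± 0.15 and 0.12 ± 0.13. No urea cycle gene had an unadjusted p below 0.05. The mean of the 10 genes per mouse ran from −0.15 to 0.58 log2 units of the control mean in sh-Glud1 and from −0.26 to 0.50 in control, with sh-Glud1 mouse 65 and control mouse 67 highest. Without control mice 3 and 67 the list's median was 0.21 in place of 0.04, 7 of 10 genes were bounded and 5 had an unadjusted p below 0.05. In that fit 1170 of all 13396 genes had an unadjusted p below 0.05 and 74.3% were bounded. Without sh-Glud1 mice 58 and 65 as well, all 10 urea cycle genes were bounded (74.8% of all genes) and the list's median was 0.07.

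Routes that make glutamate from other amino acids are given beside the 78.2% of all genes that were bounded. Of 10 tested genes for proline, histidine and arginine, 8 were inside (80%, near that share). Among them was urocanate hydratase (Uroc1, −0.05, interval −0.18 to 0.08). Ornithine aminotransferase (Oat, 0.27 ± 0.23, interval −0.19 to 0.72) and the proline-synthesis enzyme Aldh18a1 (−0.10 ± 0.29, interval −0.68 to 0.48) were not. All 18 tested branched-chain genes were inside, and the largest estimate was that of the acyl-CoA dehydrogenase Acadsb, −0.16 ± 0.07. The narrowest interval was that of Acad8 (−0.18 to 0.04) and the widest that of the dehydrogenase subunit Bckdhb (−0.38 to 0.17). For the breakdown of serine, glycine, tryptophan and the aromatic amino acids 24 of 28 (85.7%) were inside, with fumarylacetoacetase (Fah) tightest at −0.16 to 0.11. The exceptions were the serine dehydratases Sds and Sdsl (−0.38 ± 0.28, the largest estimate), Acmsd, and tyrosine aminotransferase (Tat), whose interval was −0.54 to 0.61. Methionine and one-carbon genes were bounded less often, 12 of 23 (52.2%).

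The tricarboxylic acid cycle, which takes up the 2-oxoglutarate made by glutamate dehydrogenase, had 30 of 33 members bounded (90.9%). The 2-oxoglutarate dehydrogenase subunits Ogdh (0.03 ± 0.09), Dlst (0.09 ± 0.08) and Dld (0.05 ± 0.05) were inside, as was isocitrate dehydrogenase Idh3a, which had the largest estimate of the list (0.26 ± 0.15, interval −0.03 to 0.55). The unbounded members were malic enzyme (Me1) and the pyruvate dehydrogenase kinases Pdk3 and Pdk4, the last with an interval of −0.78 to 0.61. All 75 members of nuclear-encoded oxidative phosphorylation were inside 1.5-fold and also inside the narrower margin of 25%. Its estimates ran from −0.11 to 0.12, with succinate dehydrogenase Sdha narrowest (−0.10 to 0.09) and cytochrome c (Cycs) widest (−0.08 to 0.32).

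The 13 protein-coding genes of the mitochondrial genome encode further subunits of the same respiratory complexes. All 13 estimates were below 0, 8 had an unadjusted p below 0.05 (background for lower genes 2.28%), none was called, and 12 were bounded within 1.5-fold. The median was −0.26. ND4, a complex I subunit with the largest estimate, had 6140 to 9975 CPM (median 8256) in sh-Glud1 and 7209 to 14702 CPM (median 10017) in control, a log2 fold change of −0.33 ± 0.09 (edgeR adjusted p = 0.741). The ranges of ND4 overlapped, with control mouse 3 highest. COX1 was at −0.10 ± 0.07 and cytochrome b (CYTB) at −0.32 ± 0.11, and ND6, counted from few reads, had an interval of −0.88 to 0.81. The share of all counts from these genes was 8.85% to 12.4% (median 10.3%) in sh-Glud1 and 9.43% to 14.2% (median 11.1%) in control. Genes encoded together on 1 transcript are not independent of each other. Without control mice 3 and 67 the median was −0.09 and 3 genes had an unadjusted p below 0.05. Without sh-Glud1 mice 58 and 65 as well, it was −0.20 and 5 genes did. In the fit of the 2 OTC groups alone 3 mitochondrial genes had an unadjusted p below 0.05 and 7 of 13 were bounded. Over all genes these fits had, in that order, 1170 of 13396, 622 of 13380 and 284 of 12565 at an unadjusted p below 0.05. In the last fit 77.8% of all genes were bounded.

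Cholesterol synthesis was the list with the most members at an unadjusted p below 0.05, and it held no call in the main edgeR fit. A member was called in the edgeR fit without sh-Glud1 mouse 65 and in the DESeq2 Wald test. In this pathway the transcription factor SREBP2 (Srebf2) moves to the nucleus when membrane sterol is low and turns on the enzymes from acetyl-CoA to cholesterol. Of 31 members, all tested, 29 estimates were above 0, and 20 had an unadjusted p below 0.05, all higher, against 2.52% of all genes. The median was 0.47, against −0.002 over all genes, and 9 of 31 (29%) were bounded.

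Early and late enzymes had estimates of the same sign. Hmgcs1, the HMG-CoA synthase, had 175 to 1276 CPM (median 398) in sh-Glud1 and 70.2 to 449.8 CPM (median 262) in control (1.02 ± 0.33, edgeR adjusted p = 0.981). Lss, which closes the sterol rings, had 108 to 318 CPM in sh-Glud1 and 47.7 to 168 CPM in control (0.79 ± 0.21), and squalene epoxidase (Sqle) 98.2 to 230.4 CPM in sh-Glud1 and 40.4 to 131 CPM in control (0.78 ± 0.25). In each of these genes the ranges overlapped, and sh-Glud1 mice 23 and 53 were the highest of the 16 for Hmgcs1, Lss and Sqle. Mevalonate decarboxylase (Mvd) had the widest interval, 0.25 to 1.67, and Ebp, a late isomerase, the narrowest, 0.01 to 0.33. Of the controllers, Srebf2 was at 0.21 ± 0.08 and bounded, and its escort Scap at 0.05 ± 0.09 and bounded. Insig1, which retains Srebf2, was at 0.45 ± 0.25, near the list's median of 0.47. Abca1, Abcg5 and Abcg8, exporters that answer to sterol through another receptor, were bounded at −0.01 ± 0.09, 0.06 ± 0.18 and 0.07 ± 0.18.

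**Figure D4:**
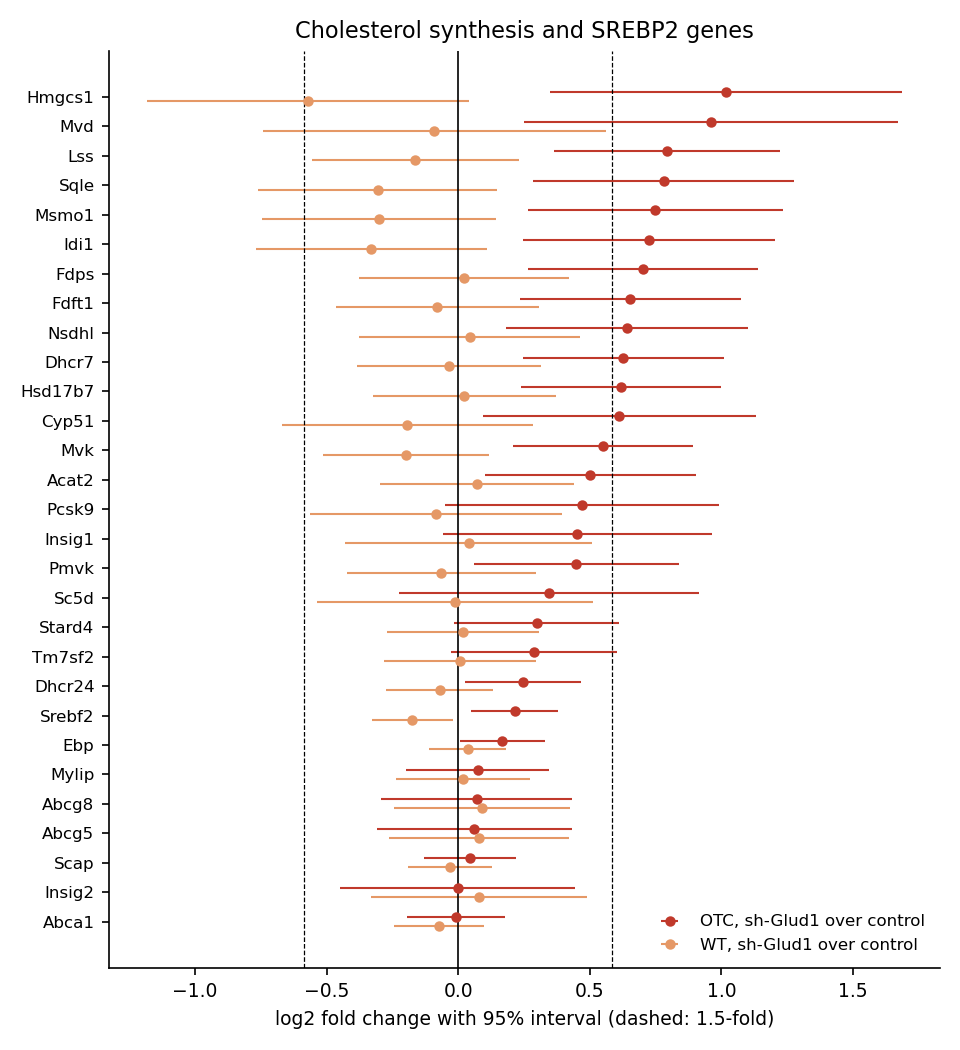
Log2 fold change with its 95% interval (horizontal axis) for 29 of the 31 cholesterol synthesis and SREBP2 genes, sh-Glud1 over control in OTC (red, upper of each pair) and in WT (orange, lower); dashed lines mark 1.5-fold. The OTC estimates drawn run from −0.01 to 1.02, the medians over the 31 genes are 0.47 in OTC and −0.03 in WT, and no gene of the list was called by the main edgeR fit in either strain.

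The list's mean per mouse moved with the libraries that stood apart. Relative to the control mean it was 0.02 in sh-Glud1 mouse 65 and 0.13 in mouse 58, and between 0.33 and 1.07 in the other 6 sh-Glud1 mice. In control mouse 3 it was −0.88 and in mouse 67 −0.66, and between −0.01 and 0.55 in the other 6 controls. The 4 libraries with the highest glucocorticoid and fasting means were thus the lowest of their own groups in cholesterol genes. Among the other 12 mice, sh-Glud1 mice 23 (1.07) and 53 (1.02) stood well above every control, mice 71 (0.58) and 42 (0.56) just above the highest control (0.55), and mice 33 and 44 within the control range. Without control mice 3 and 67 the median of the 31 genes was 0.24 and 12 had an unadjusted p below 0.05. Without sh-Glud1 mice 58 and 65 as well it was 0.36 with 17 genes, and neither fit called a member. In the fit of the 2 OTC groups alone the median was 0.46 and 12 genes had an unadjusted p below 0.05. The counts over all genes in these fits were, in that order, 1170 of 13396, 622 of 13380 and 284 of 12565.

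**Figure D5:**
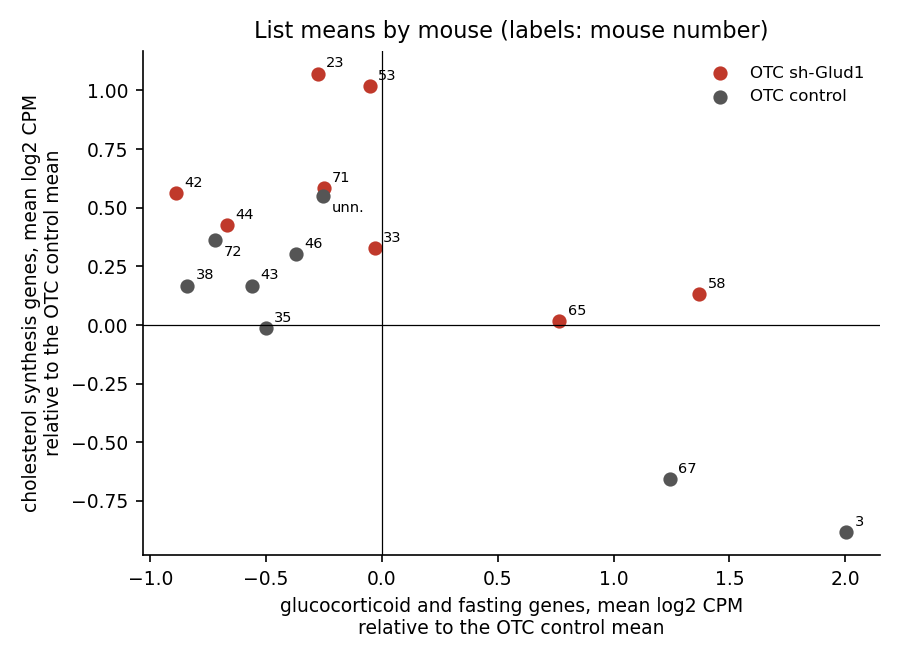
Mean log2 CPM of the 31 cholesterol synthesis genes (vertical axis) against that of the 23 glucocorticoid and fasting genes (horizontal axis), both relative to the OTC control mean, for 8 OTC sh-Glud1 (red) and 8 OTC control (grey) mice labelled by mouse number, with unn. for the control without a matched number. Control mice 3 and 67 lie at −0.88 and −0.66 on the vertical axis, and sh-Glud1 mice 23 and 53 at 1.07 and 1.02.

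The promoters of Hmgcs1 and Srebf2 are printed because, of the members with a promoter in the table, theirs hold the letters TCACCCCA of the sterol regulatory element, where SREBP proteins bind. They are the 250 bases before the annotated start on the plus strand (RefSeq, GRCm38.p6), 5′ to 3′, with the motif in capitals.
Hmgcs1 promoter, chr13:119690101-119690350: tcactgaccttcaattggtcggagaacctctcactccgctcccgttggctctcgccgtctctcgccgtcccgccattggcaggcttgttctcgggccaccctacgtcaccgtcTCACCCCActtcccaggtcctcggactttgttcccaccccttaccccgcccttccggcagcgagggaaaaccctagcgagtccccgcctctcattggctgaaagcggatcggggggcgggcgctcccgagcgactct
Srebf2 promoter, chr15:82147019-82147268: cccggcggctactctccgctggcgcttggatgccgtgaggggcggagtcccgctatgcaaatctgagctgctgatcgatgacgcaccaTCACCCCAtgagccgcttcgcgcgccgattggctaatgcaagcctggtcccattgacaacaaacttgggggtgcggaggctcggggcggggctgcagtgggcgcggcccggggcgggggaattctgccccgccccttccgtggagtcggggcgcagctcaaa
Both strands were searched for these 8 letters. Of 30 promoters of 23 of the 31 genes, 2 held them (6.67%), against 441 of all 32851 promoters (1.34%) and 175 of the 12845 promoters of tested genes (1.36%). A match describes these letters in this window and is not evidence of binding. Hmgcs1 had a log2 fold change of 1.02 ± 0.33 and Srebf2 of 0.21 ± 0.08, and neither passed.

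Other stress and immune lists had fewer members at an unadjusted p below 0.05 and no call. Among 26 genes of the unfolded protein response, 6 were higher at an unadjusted p below 0.05 (background 2.52%), the median was 0.22 and 15 (57.7%) were bounded. Sdf2l1, a chaperone cofactor of the endoplasmic reticulum, was at 0.86 ± 0.36 and the chaperone Hspa5 at 0.37 ± 0.22, and Derl3 had the widest interval, −0.47 to 2.09. The mean of this list per mouse was −0.32 to 0.95 in sh-Glud1 and −0.22 to 0.25 in control, with sh-Glud1 mice 42 and 44 above the rest. The 6 unfolded protein genes became 2 of 26 without control mice 3 and 67 (median 0.18), 6 of 26 without sh-Glud1 mice 58 and 65 as well (median 0.29), and 0 of 25 in the fit of the 2 OTC groups alone. Over all genes these fits had, in that order, 1170 of 13396, 622 of 13380 and 284 of 12565 at an unadjusted p below 0.05. Of 49 interferon-stimulated genes, 47 estimates were above 0, 7 had an unadjusted p below 0.05, and 25 (51%) were bounded, with a median of 0.19. WT livers with the same hairpin had a similar interferon median, 0.18. There 44 of 49 estimates were above 0 and 5 genes had an unadjusted p below 0.05 (5.24% of all genes). The interferon mean was lowest in sh-Glud1 mouse 58 (−0.80) and in control mouse 3 (−0.74). Without control mice 3 and 67 there were 2 interferon genes at an unadjusted p below 0.05 (median 0.11), without sh-Glud1 mice 58 and 65 as well there were 10 (median 0.22), and in the fit of the 2 OTC groups alone 3. The counts over all genes in these fits are those given for the unfolded protein genes. Ifi44 had the largest estimate (0.67 ± 0.29), Oas1g the widest interval (−0.34 to 1.14) and Ifi35 the narrowest (0.03 to 0.36). Heat shock genes had 16 of 22 bounded (72.7%), with the mitochondrial chaperonin Hspd1 at 0.11 ± 0.05. For ATF4 and the amino acid response it was 21 of 34 (61.8%), and for NRF2 and glutathione genes 23 of 39 (59%), with the cystine transporter Slc7a11 least certain in both (0.82 ± 0.67).

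Most genes of the protein-making and protein-degrading machinery were bounded. Over all genes the share was 78.2%, with 93.9% at 4 to 6 log2 CPM and 90% above that. The shares of these lists were not compared with genes of the same level. The mitochondrial ribosome had 75 of 76 bounded, and the exception, Mrps27, had 23.9 to 36.3 CPM (median 27.8) in sh-Glud1 and 15.2 to 26.9 CPM (median 20.9) in control (0.40 ± 0.10, edgeR adjusted p = 0.492). Of these 76 genes, 6 were higher and 0 lower at an unadjusted p below 0.05 (background for higher genes 2.52%). Of cytosolic ribosomal proteins 79 of 81 were bounded (97.5%). Their estimates were below 0 in 77 of 81 (median −0.07), and none had an unadjusted p below 0.05. Rpl26 was not bounded, with an interval of −5.44 to 1.33. It had a median of 0 CPM in sh-Glud1 and 51.6 CPM in control. Its range went from 0 in both groups to 110.5 CPM in sh-Glud1 and 129 CPM in control. Whether its reads were assigned alike in all libraries was not tested, so a value of 0 need not mean an absent transcript. All 39 proteasome genes were within 1.5-fold and 38 within the margin of 25%, with 6 higher at an unadjusted p below 0.05 (background 2.52%), the largest being the deubiquitinase subunit Psmd14 (0.15 ± 0.07). Proteasome estimates were above 0 in 38 of 39 (median 0.05). The count of 6 proteasome genes became 0 in the fit of the 2 OTC groups alone and 2 without mice 3, 67, 58 and 65. It became 19 with limma on log2(TPM + 1), where the median over all genes was itself shifted to 0.05. Over all genes these fits had 284 of 12565, 622 of 13380 and 963 of 11310 at an unadjusted p below 0.05. The 16 genes of the RNA interference machinery, which processes hairpins, were bounded, with Tnrc6b (−0.21 ± 0.07) the largest and Ago2, the slicing Argonaute, at −0.09 ± 0.09. Lysosomal genes had 34 of 35 inside, the exception being cathepsin L (Ctsl, interval −0.81 to 0.09).

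Other lists were bounded only loosely. Of glucocorticoid and fasting genes 4 of 23 were bounded (17.4%), and metallothionein Mt2 had an interval of −3.07 to 0.74. The glucocorticoid and fasting median was −0.19 with all 16 libraries, 0.60 without control mice 3 and 67, and 0.23 without sh-Glud1 mice 58 and 65 as well. Of male-biased genes, which follow pulsed growth hormone, 3 of 33 (9.09%) were bounded, and of female-biased genes 7 of 25 (28%). The sulfotransferase Sult1e1 was at −2.39 ± 0.88 with medians of 1.11 CPM in sh-Glud1 and 0.497 CPM in control, since control mouse 3 alone had 152 CPM. Members of the Mup family are near-identical and their reads are uncertain, and Mup11 had an interval of −3.90 to 3.28. Circadian genes had 6 of 20 bounded (30%), with Npas2 at −1.08 ± 0.72, and cell cycle genes 9 of 38 (23.7%), with Prc1 at −1.01 ± 0.70. Lipogenesis had 14 of 30 (46.7%), from the lipid transfer protein Mttp (interval −0.04 to 0.21) to the lipid droplet protein Cidec (−0.32 to 3.79). Fatty acid oxidation and PPAR alpha targets had 23 of 36 (63.9%), from Acadvl (−0.08 to 0.12) to the pantetheinase Vnn1 (−0.82 to 2.52). For xenobiotic enzymes it was 31 of 52 (59.6%), and for bile acid genes 18 of 24 (75%), with Baat held to −0.18 to 0.12.

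Markers of the liver's cell types did not pass the test in any list. Of hepatocyte identity genes 24 of 25 were bounded (96%), with the vitamin D binding protein (Gc) at −0.18 to 0.03 and Tat the exception. Endothelial genes had 24 of 26 bounded (92.3%), from Erg (−0.22 to 0.11) to Lyve1 (−0.14 to 1.01). Stellate cell and matrix genes had 21 of 28 (75%), with collagen Col1a1 at −0.56 ± 0.37, and macrophage and Kupffer cell genes 18 of 29 (62.1%), with Vsig4 at −0.04 ± 0.13. The widest and largest of these was Gpnmb, a glycoprotein of lipid-laden macrophages, at 0.147 to 1.54 CPM (median 0.633) in sh-Glud1 and 0.135 to 16.2 CPM (median 0.521) in control (−1.86 ± 0.72, interval −3.29 to −0.42, edgeR adjusted p = 0.988). The bile duct and progenitor list had 8 of 18 (44.4%). Of 30 lymphocyte markers 16 were tested and 2 bounded, of 15 neutrophil markers 6 were tested and 2 bounded, and of 9 tested erythroid genes 2 were bounded, so most of their tested markers were not bounded within 1.5-fold. Genes of hepatocytes near the central vein had 19 of 29 bounded (65.5%) and those near the portal vein 18 of 26 (69.2%).

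Glud1 and Gm3219 were also called in WT livers with the same hairpin. WT livers share no library with the OTC comparison. Glud1 was at 254 to 583 CPM in WT sh-Glud1 and 844 to 1212 CPM in WT control (−1.42 ± 0.12, edgeR adjusted p = 3.96e-12), and the mean was 37.3% of control. Gm3219 passed there as well (−1.18 ± 0.16, edgeR adjusted p = 3.82e-06). The third and last WT call was Zdhhc6, a protein acyltransferase, at 60.4 ± 4.22 CPM in WT sh-Glud1 (SD, n = 9) and 69.3 ± 1.87 CPM in WT control (SD, n = 10), a log2 fold change of −0.20 ± 0.04 (edgeR adjusted p = 0.0328). In OTC livers Zdhhc6 was at −0.03 ± 0.04 with an interval of −0.12 to 0.05. The WT calls made up 0.0225% of genes, and 697 genes (5.24%) had an unadjusted p below 0.05.

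The OTC effect minus the WT effect called no gene in edgeR, in the DESeq2 Wald test or in limma on TPM, with 417 genes (3.13%) at an unadjusted p below 0.05 in edgeR. For Glud1 the difference of effects was 0.16 ± 0.17 and for Gm3219 0.25 ± 0.23 (edgeR adjusted p = 0.999 each). The cholesterol list had a median of −0.03 in WT, with 1 of 31 genes at an unadjusted p below 0.05. For 15 of the 31 the difference between strains had an unadjusted p below 0.05, and none passed. MHC class II genes had a median of −0.15 in OTC and 0.55 in WT, and for 7 of 11 the difference had an unadjusted p below 0.05, again without a call. Without control mice 3 and 67 the OTC median of the class II genes was −0.40, and without sh-Glud1 mice 58 and 65 as well −0.18. H2-Aa was at −0.06 ± 0.26 in OTC and 0.78 ± 0.24 in WT.

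Set directly against the 10 OTC livers with the hairpin against Gls2, the sh-Glud1 livers differed in 5395 genes (40.5%), 2802 higher (21.1%) and 2593 lower (19.5%). Glud1 was lower in sh-Glud1 (−1.25 ± 0.13, edgeR adjusted p = 2.06e-11) and Gls2 was higher (1.13 ± 0.10, edgeR adjusted p = 1.57e-12) in that order of subtraction. The 5 higher genes with the smallest adjusted p were the phosphate transporter Slc20a2 (1.33 ± 0.07), the proteasome component Shfm1 (1.37 ± 0.08), the G protein subunit Gnai3 (0.85 ± 0.06), the sensor Nlrp6 (1.31 ± 0.09) and Lage3 (1.59 ± 0.10). The 5 lower genes were the proteasome subunits Psmc6 (−0.70 ± 0.05), Psmb7 (−0.59 ± 0.04) and Psmd14 (−0.90 ± 0.07), the transporter Slc22a18 (−0.92 ± 0.07) and Ccdc120 (−2.56 ± 0.19). Of the 39 proteasome genes 33 were lower and 2 higher in sh-Glud1 than in sh-Gls2, whereas all 39 were bounded within 1.5-fold against control. With limma on log2(TPM + 1) the split was 2640 higher and 1881 lower.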

How the data were processed

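Liver RNA of 55 mice was sequenced, and 16 libraries form the main comparison. The labels' protocols name MagMAX-96 extraction with TURBO DNase and the KAPA Stranded mRNA kit with PCR amplification. Gene counts were deposited by the authors as whole reads per gene symbol, and TPM, a length-corrected share of transcripts, was deposited by the authors beside them. The submitters' processing notes name CASAVA 1.8.2, FastQC and GRCm38, whereas aligner, counter and annotation were not found in any source used here. Without molecular identifiers reads are not independent molecules.

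Counts of all 55 libraries were fitted with edgeR 4.0.16 in R 4.3.3, with 1 term for each of 6 groups, TMM normalisation and a filter (filterByExpr, minimum count 10, minimum total 15). Quasi-likelihood F tests were adjusted by Benjamini-Hochberg over 13311 genes at 0.05. The standard error is the absolute log2 fold change over the square root of F, and the 95% interval uses the t quantile of the fit's degrees of freedom. Per-mouse list means use log2 CPM with a prior count of 1. DESeq2 1.42.0 and limma 3.58.1 on log2(TPM + 1) or log2(TPM + 0.1) were alternatives. The edgeR fit was also run on simulated counts, drawn independently for each gene and library. Such counts lack shifts shared by many genes of a mouse, and no result given here rests on them. Over 2-fold variation in the ratio of TPM to count was seen for 70 of 8862 well-counted genes, but not for Glud1. Positions came from GENCODE M21, which held 23397 of 24475 symbols.

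Groups followed the labels. One OTC control column carries a mouse number that no label holds and is called unnumbered. Mice carry unique numbers, so nothing pairs them. Labels do not say more of how mice were housed or handled together, and p-values measure the spread between these mice. The members and lists were chosen with earlier results of these data known. Named were Glud1, Gls2 and Otc, called genes, the 5 largest positive and 5 largest negative estimates of the 50 genes with the smallest p, and in each list its called members, its narrowest and widest interval and its largest estimate. Other genes, such as those given for their place in a pathway, were chosen after their values were seen. Not every gene that this rule names is given, and some are not reported here.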

Additional observations from a re-analysis of the deposited data

Results flagged for a closer look

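In 136 sets of 8 mice (16 genes and 52 list means in each OTC group) the most extreme mouse was compared with the nearest other one. It stood apart by more than Dixon's 95% critical value in 17 sets. The rate of about 1 in 20 for that value holds for unselected, independent, normally spread sets. It cannot be set against this count, because many of the genes were chosen by their estimates in these data and list means share mice. Explanations were not weighed.

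Among genes, Otc was highest in sh-Glud1 mouse 42 (74.5 CPM, next 58.8). Saa1 was highest in sh-Glud1 mouse 58 (105 CPM, next 36.3), as was Fam107a (14.9 CPM, next 3.40). In control mouse 3 Fam107a reached 146 CPM (next 9.67), Mturn 7.24 CPM (next 4.21) and Porcn 13.5 CPM (next 6.96). Syn2 was highest in control mouse 67 (2.39 CPM, next 0.876).

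Among list means, in log2 units relative to the OTC control mean, sh-Glud1 mouse 65 was highest for the urea cycle (0.58, next 0.11) and for proline, histidine and arginine genes (0.31, next 0.07). The interferon mean was lowest in sh-Glud1 mouse 58 (−0.80, next 0.02), and the heat shock mean highest in sh-Glud1 mouse 44 (0.73, next 0.18). Circadian (−0.38, next 0.08) and Y-linked genes (−0.53, next −0.13) were lowest in sh-Glud1 mouse 42. Control mouse 3 was lowest for fatty acid oxidation (−0.73, next −0.11) and MHC class I (−0.37, next −0.03), and highest for immediate early genes (0.56, next 0.12). Control mouse 38 was lowest for iron and heme genes (−0.14, next −0.02).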

How the results depend on the processing

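No paired analysis was possible because each mouse has a number of its own, which no other mouse shares. Glud1 stayed lower and called in 10 of 10 other settings (log2 fold change −1.27 to −1.15) and in the 16 fits that left out 1 mouse (−1.34 to −1.19, edgeR adjusted p at most 3.78e-08). The OTC count of called genes was 1 to 3 over 10 settings: it was 1, Glud1, when only the compared groups entered the fit, where the cause was not tested, and 3 with the DESeq2 Wald test. It was 2 to 3 when 1 mouse was left out. Genes bounded within 1.5-fold numbered 10103 to 10347 when 1 mouse was left out, and 6790 genes met the narrower margin of 25%, by its construction. Of the 6 lists bounded in full, in the fit of the compared groups only the urea cycle had 8 of 10 inside and the proteasome 38 of 39, without control mice 3 and 67 these were 7 of 10 and 38 of 39, and on TPM oxidative phosphorylation had 74 of 75. Over all genes 77.8% were bounded with the compared groups only, 74.3% without control mice 3 and 67, and 85.8% to 91.1% on TPM. WT calls were 2 to 4 over 10 settings and 2 to 3 with 1 mouse left out, and the difference between strains called 0 genes in all of these fits. The direct comparison of the hairpins called 4465 to 5707 genes over 10 settings and 5030 to 5456 with 1 mouse left out. On TPM the median of all genes in OTC was 0.05 to 0.06, a shift below the 0.1 at which changes would be given relative to it. The alternative without mice 3, 67, 58 and 65 was added after seeing the data. Of genes below 0 log2 CPM 10.3% were bounded within 1.5-fold, and how depth and the spread between mice share in this was not tested.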
